A study of Mus musculus with 4 samples.

Results

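Glycolysis and hypoxia-response genes are described here in primary liver sinusoidal endothelial cells (LSECs) of mice. The set holds 38 genes, taken by symbol from the 18373 genes of the deposited expression table: 23 act in glucose uptake, glycolysis and the fate of lactate and pyruvate, and 15 belong to the hypoxia response. All 38 are in the table, and 36 had enough reads for the test, which covered 13628 genes. *Aldoc* and *Car9* did not.

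Glycolysis splits glucose into pyruvate in the cytosol, with the phosphorylation of fructose 6-phosphate as its main point of control, and endothelial cells are known to draw much of their ATP from it. The hypoxia-inducible factors HIF-1α and HIF-2α are made continuously and destroyed in normal oxygen, because prolyl hydroxylases mark them for the von Hippel-Lindau protein. When oxygen is low they persist, pair with ARNT, bind DNA motifs with the core ACGTG or GCGTG and switch on glucose transporters, glycolytic enzymes and genes of mitochondrial and matrix remodelling, so messenger RNAs of these targets are commonly read as a sign of HIF activity.

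The study asked what the long non-coding RNA *Airn* does in LSECs. Cells came from 8-week-old BALB/c mice. The labels give pronase and collagenase for the digestion of the liver, whereas the methods give collagenase IV alone for LSECs, then a Nycodenz density gradient and magnetic beads against CD146, an endothelial surface protein. The cells were grown for 24 h on collagen, transfected for 48 h and taken at day 3. There were 4 libraries of single-end reads of 50 bases, 2 from cells given a control siRNA (NC) and 2 from cells given si*Airn*. The methods speak of 2 separate si*Airn*, whereas both si*Airn* labels name si*Airn*1, so the siRNA behind each si*Airn* library remains unknown here. The labels call the libraries of a group biological replicates 1 and 2 and do not say whether they came from separate mice, so the p-values measure the spread between these libraries, which may be technical. No source used here gives an oxygen level for the cultures.

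Library totals were between 17308382 and 18371959 counts, and edgeR's common biological coefficient of variation was 0.0754. *Airn* itself had 7 and 3 counts in NC against 11 and 9 in si*Airn*, which gives a ratio of 2.02 scaled to library totals with an exact 95% interval from 0.903 to 4.83 for counting error only, so the target showed no decrease in the si*Airn* libraries, and all directions below follow the labels. Endothelial identity was plain in every library, since 10 pan-endothelial markers summed to between 6072 and 9421 CPM (counts scaled to library size) and neutrophil, lymphocyte and erythroid lists each summed to at most 5.14 CPM, with *Camp* and *Mpo* at 0. These sums moved with the groups. LSEC markers summed to 4122 and 4231 CPM in NC against 2819 and 2568 in si*Airn* (10 of 12 called lower, that is with an adjusted p under 0.05 in the test described below), pan-endothelial markers to 9421 and 9022 against 6877 and 6072 (6 of 10 lower), and Kupffer cell markers to 243 and 310.2 against 186 and 156 (7 of 11 lower, and 2 of 11 once GC content and length were corrected for). Stellate cell markers went the other way, from 1141 and 1347 to 1399 and 1822 CPM (4 of 11 higher). The hepatocyte sum also rose, from 575 and 742 to 807 and 1047 CPM. Of 12 hepatocyte markers tested, 11 were higher and 1 lower, and 1 (8.33%) was called, higher. Most of that sum was *Alb*, with 497 and 638 CPM in NC against 705 and 900 in si*Airn*, which was not called (edgeR adjusted p = 0.0598). Of all genes, 8.27% were called higher and 8.56% lower, and 7.84% in either direction after the GC and length correction. The marker levels are from cells that had passed the CD146 selection the methods describe. In bulk RNA, fewer cells of a type and less RNA per cell cannot be told apart, and the part that these shifts play in the values below was not tested.

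Counts over the whole set are given beside the share of all genes. In the quasi-likelihood test of edgeR, adjusted by Benjamini-Hochberg over all genes tested, 4 of the 36 members (11.1%) had an adjusted p under 0.05, against 16.8% of all genes. *Pfkfb3* and *Pfkp* were higher in si*Airn* (8.27% of all genes were called higher), and *Ldhb* and *Bnip3l* were lower (8.56%). The threshold that the study states, a fold change over 1.4 with an unadjusted p under 0.05, was passed by 1 member, *Ldhb*, and by 9.96% of all genes (5.25% higher, 4.72% lower). With the unadjusted p alone 13 members passed (5 higher, 8 lower), or 36.1% against 34% of all genes. Both si*Airn* libraries lay on one side of both NC libraries in 22 members, or 61.1% against 62.7% of all genes.

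The members were well covered. Their median level was 71.3 CPM against 28.3 for all genes tested, and 27 of them lay above that median. Of the genes that averaged 10 CPM or more, 9551 in all, 22.1% were called, and so were 4 of the 31 members. The median size of the change, without its sign, was 0.16 log2 units in the members and 0.20 in all genes, with median standard errors of 0.08 and 0.10. For 25 members (69.4%, against 49.7% of all genes) the whole 95% interval of the change lay within a factor of 1.4 in either direction. The median change of the members was a log2 fold change of -0.05, with 13 higher and 23 lower against 6834 higher and 6794 lower among all genes. Once GC content and length were corrected for, as described below, the median was 0.02, with 20 members higher and 16 lower. Glycolysis and lactate genes held 0.560% and 0.568% of all counts in NC against 0.544% and 0.561% in si*Airn*, so their summed share overlapped between the groups.

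**Figure D1:**
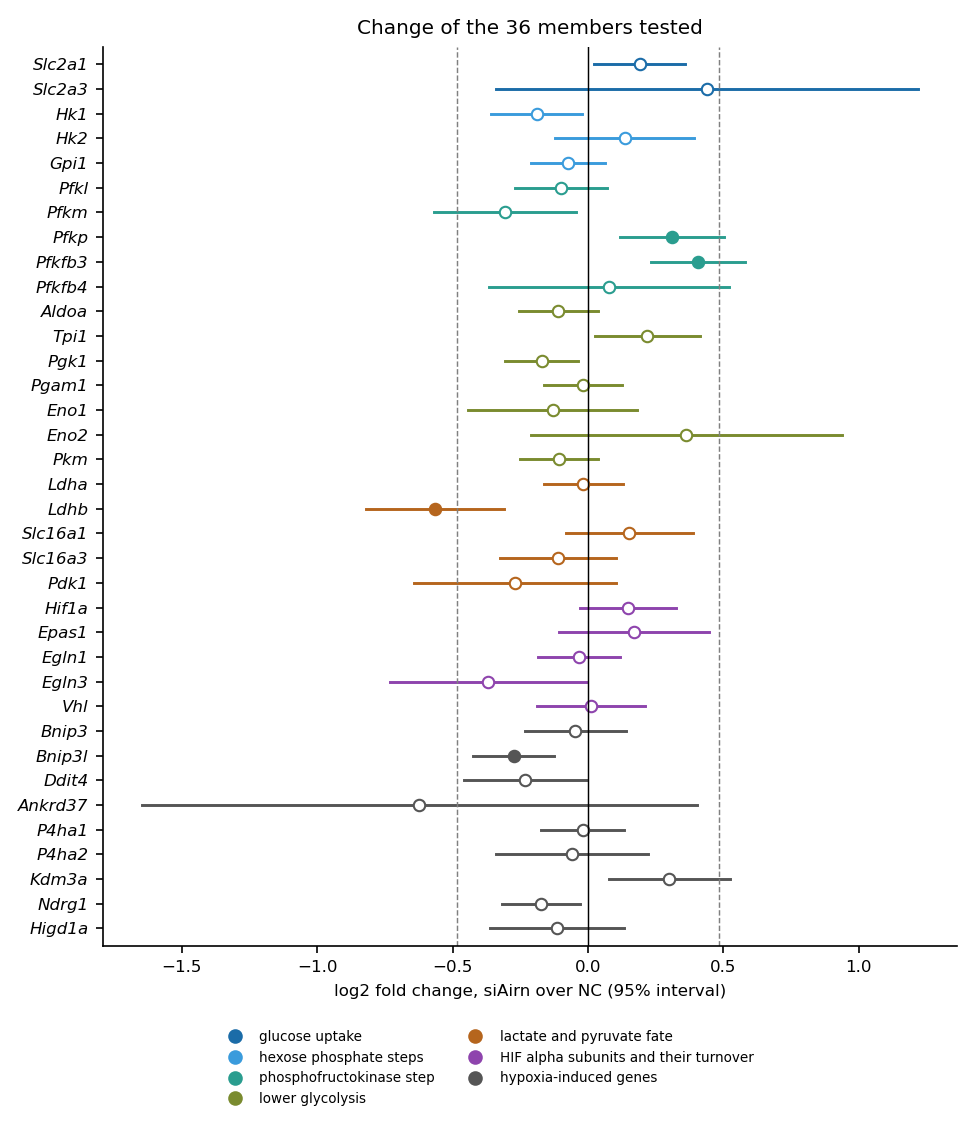
Change of each of the 36 members tested, as the log2 fold change of si*Airn* over NC with its 95% interval (horizontal axis), ordered by role from glucose uptake at the top to hypoxia-induced genes at the bottom. Filled points mark the 4 members with an adjusted p under 0.05 by edgeR and dashed lines a fold change of 1.4, beyond which *Ldhb* lies with the lower bound of its interval at -0.82.

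The order of the genes by level was set by the later steps of the pathway. Scaled for transcript length as FPKM, *Pkm* (pyruvate kinase) was highest in NC at 673 ± 5.99 (SD, n = 2), followed by *Aldoa* (aldolase) at 653 ± 23.8, *Ldha* (lactate dehydrogenase A) at 408 ± 12.1 and *Pgk1* (phosphoglycerate kinase) at 401 ± 7.01. *Pkm* and *Aldoa* differed by less than the spread of *Aldoa*, and so did *Ldha* and *Pgk1* by less than that of *Ldha*. Of their 50-base windows, 34.4% (*Pkm*), 13.5% (*Aldoa*), 16.6% (*Ldha*) and 68.0% (*Pgk1*) also occur in other genes, so this order is uncertain. In si*Airn* the FPKM of *Ldha* was 415 ± 8.88 and that of *Pgk1* 366 ± 6.19. *Hif1a* was the highest of the hypoxia-response genes at 73.7 ± 5.23 FPKM, ahead of *P4ha1* at 64.8 ± 3.49. At the other end lay *Slc2a3* at 0.580 ± 0.0424 and *Car9* at 0.395 ± 0.120 FPKM, below which *Aldoc* was listed at 0.07 and 0.13 FPKM.

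**Figure D2:**
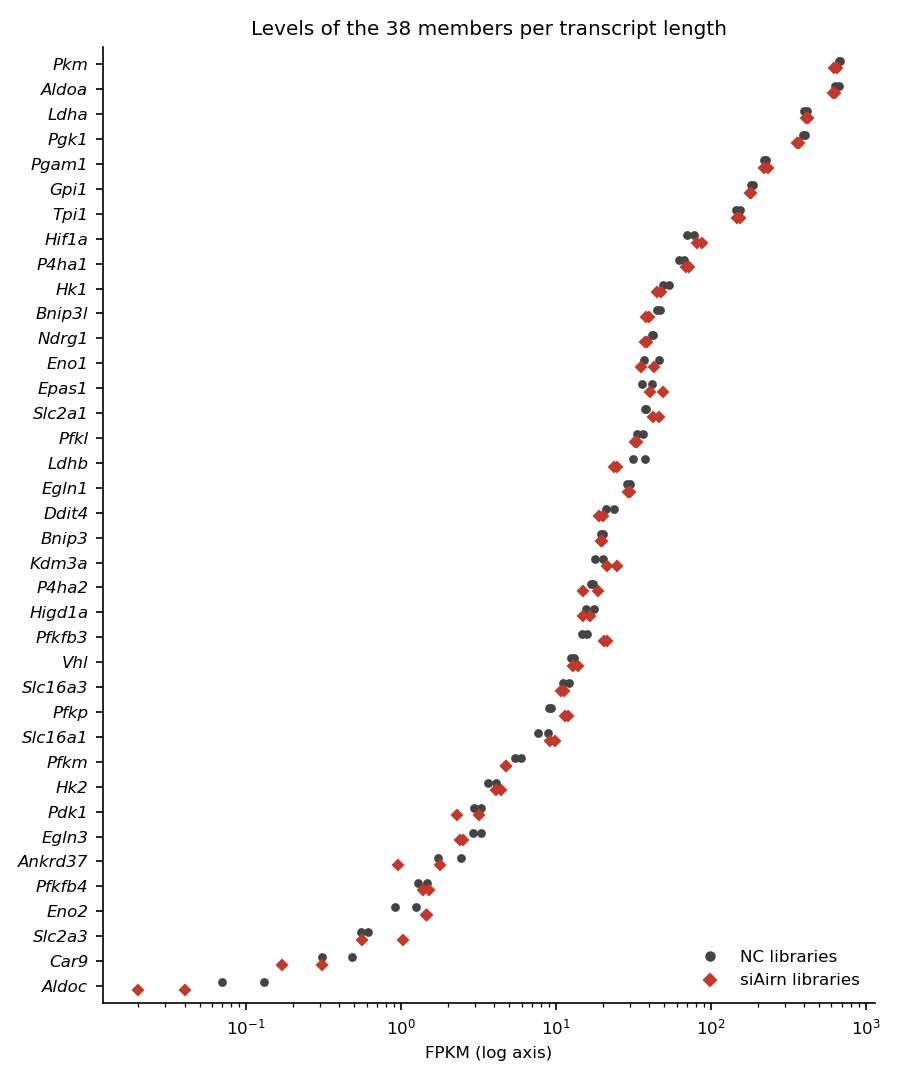
FPKM of all 38 members in each library (horizontal log axis), ordered by their mean in NC, with NC libraries as grey circles and si*Airn* libraries as red diamonds. Levels run from 0.0200 FPKM for *Aldoc* to 677 for *Pkm*, and for most genes the points of both groups lie close together on this scale.

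Among the glucose transporters *Slc2a1* to *Slc2a4*, *Slc2a1*, which encodes GLUT1, held 98.0% of the FPKM in NC against 97.8% in si*Airn*. *Slc2a8*, a further transporter given below, is not in that sum. *Slc2a1* (gene ID 20525) had 92.7 and 94.7 CPM in NC against 102 and 112 in si*Airn*. Both si*Airn* libraries were above both NC libraries, by a log2 fold change of 0.19 (standard error 0.07, 95% interval 0.02 to 0.36) that did not pass the adjustment (edgeR adjusted p = 0.112). *Slc2a3*, the neuronal and leukocyte transporter GLUT3, had at most 3.43 CPM in any library, and its groups overlapped.

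Hexokinases trap glucose as glucose 6-phosphate. *Hk1* made up 90.5% of hexokinase FPKM in NC against 89.7% in si*Airn*, and *Hk2*, the isozyme that HIF induces, 6.82% ± 0.193 and 8.30% ± 0.178 (SD, n = 2 each). *Hk2* (gene ID 15277) had 21.9 and 19.1 CPM in NC against 21.6 and 23.5 in si*Airn*, which overlap, and its log2 fold change was 0.14 (standard error 0.11, edgeR adjusted p = 0.418). *Hk1* had 201 and 184 CPM in NC against 164 and 173 in si*Airn*. The groups were apart, but the log2 fold change of -0.19 had an adjusted p of 0.111 by edgeR, and the same test gave 0.419 for *Gpi1* (glucose 6-phosphate isomerase) at -0.07. The share of *Hk2* in hexokinase therefore moved by more than the spread within groups, while neither gene's own change was called.

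Of the 5 genes of the phosphofructokinase step, 2 were called higher and none lower (8.27% of all genes were called higher), and the call on 1 of them, *Pfkp*, was lost once GC content and length were corrected for. *Pfkfb3* makes fructose 2,6-bisphosphate, the strongest activator of phosphofructokinase, and in endothelial cells it is known as a driver of glycolysis during sprouting. *Pfkfb3* (gene ID 170768, chromosome 2 from 11471433 to 11554077, minus strand, GRCm38) had 67.9 and 62.4 CPM in NC against 83.9 and 88.8 in si*Airn*. All si*Airn* values were above all NC values, and the lowest si*Airn* value exceeded the highest NC value by more than the gap between replicates of either group. The log2 fold change was 0.41 (standard error 0.07, 95% interval 0.23 to 0.58, 1.33-fold), with an adjusted p of 0.0162 by edgeR. The call held in all 11 alternative analyses with 4 libraries, with adjusted p-values from 2.15e-05 to 0.0365. In fits on 3 libraries it held without either si*Airn* library (0.00978 and 0.0364 by edgeR) and was lost without NC replicate 1 (0.0767, log2 fold change 0.47) or NC replicate 2 (0.127, log2 fold change 0.34), where 40 and 0 genes in all were called.

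*Pfkp* encodes the platelet isozyme of phosphofructokinase itself. *Pfkp* (gene ID 56421, chromosome 13 from 6579768 to 6648777, minus strand, GRCm38) had 29.2 and 30.1 CPM in NC against 35.6 and 37.9 in si*Airn*, again with the groups fully apart. The log2 fold change was 0.31 (standard error 0.08, edgeR adjusted p = 0.0437). This call depended on the analysis. It held in 5 of 11 alternatives with adjusted p-values from 0.00641 to 0.553, and once GC content and length were corrected for, the log2 fold change was 0.08 (edgeR adjusted p = 0.553). It was also lost without NC replicate 1, NC replicate 2 or si*Airn* replicate 2. In fits on 3 libraries the log2 fold change of *Pfkp* ran from 0.27 to 0.35. In GENCODE M21, 5.58% of its exonic bases lie under exons of *Pitrm1* on the opposite strand, and the use of strand in the counting is not given in the sources used here.

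The isozyme makeup of phosphofructokinase, read from FPKM with no correction for GC content, differed between the groups. *Pfkp* held 17.7% and 19.1% of the FPKM of the 3 isozymes in NC against 23.0% and 24.4% in si*Airn*. *Pfkl*, the liver isozyme and the most abundant in these cells, held 70.0% ± 2.12 in NC against 66.7% ± 0.955 in si*Airn*, and *Pfkm*, the muscle isozyme, 11.5% ± 1.12 and 9.57% ± 0.00899 (SD, n = 2 each). *Pfkl* had 118 and 107 CPM in NC against 106 and 103 in si*Airn* (log2 fold change -0.10, edgeR adjusted p = 0.370) and *Pfkm* 15.2 and 16.7 against 12.8 and 13.0 (-0.31, adjusted p = 0.103). The log2 fold changes of *Pfkp*, *Pfkl* and *Pfkm* were 0.08, 0.0034 and -0.19 once GC content and length were corrected for, so the gap between *Pfkp* and *Pfkl* was mostly gone. *Pfkfb4*, a relative of *Pfkfb3* that is induced in hypoxia, had between 4.55 and 5.37 CPM, and its groups overlapped.

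Promoter sequences of the genes called at this step are shown because HIF binds the cores ACGTG and GCGTG, and capitals mark every match to either core on either strand (also read as CACGT and CACGC, where CACGTG counts on both strands). The windows run from 250 bases before to 50 bases after a RefSeq start on GRCm38.p6, in the direction of the gene. *Pfkfb3* has 2 such windows, chr2:11553880-11554179 with 1 match and chr2:11502041-11502340 with 4, and *Pfkp* has 1, chr13:6648722-6649021 with 4, all on the minus strand.
Pfkfb3, start upstream: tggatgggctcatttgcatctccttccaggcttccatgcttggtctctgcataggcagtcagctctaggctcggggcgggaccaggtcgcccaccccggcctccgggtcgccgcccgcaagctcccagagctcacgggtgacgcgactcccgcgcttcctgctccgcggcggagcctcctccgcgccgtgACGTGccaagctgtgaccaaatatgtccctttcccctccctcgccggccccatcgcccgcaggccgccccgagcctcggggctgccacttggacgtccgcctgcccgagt
Pfkfb3, start downstream: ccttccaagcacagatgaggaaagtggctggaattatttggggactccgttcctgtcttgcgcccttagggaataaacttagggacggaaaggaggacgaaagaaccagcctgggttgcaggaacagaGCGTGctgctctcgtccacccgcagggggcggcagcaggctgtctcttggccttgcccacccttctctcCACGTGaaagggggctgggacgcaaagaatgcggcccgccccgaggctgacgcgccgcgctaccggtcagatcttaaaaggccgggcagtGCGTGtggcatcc
Pfkp: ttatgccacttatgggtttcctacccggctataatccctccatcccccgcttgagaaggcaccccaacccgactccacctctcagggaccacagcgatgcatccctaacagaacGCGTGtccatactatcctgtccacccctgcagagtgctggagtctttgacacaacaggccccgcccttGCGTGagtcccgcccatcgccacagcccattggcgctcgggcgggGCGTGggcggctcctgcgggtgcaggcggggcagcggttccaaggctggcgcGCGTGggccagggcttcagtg
A match is a description of letters and not a binding site. By gene, 30 of the 34 members in the promoter table (88.2%) had a match in at least 1 window, against 66.8% of the 10409 genes tested that are in it, and for ACGTG alone 23 (67.6%) against 29.2%. By window, 38 of 49 (77.6%) had a match against 43.8% of all 32851 windows in the table, genes below the test's count filter included, and for ACGTG alone 26 (53.1%) against 19.6%. The members with no match in any of their windows were *Vhl*, *Eno2*, *Tpi1* and *Gpi1*. *Slc2a3*, *Epas1*, *Bnip3l* and *Ndrg1* have no entry in the promoter table.

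Of the lower glycolytic genes, which turn fructose 1,6-bisphosphate into pyruvate, none of 7 tested was called (16.8% of all genes were) and 5 were lower, against 6794 of all 13628 genes. Once GC content and length were corrected for, *Tpi1* was called and only *Pgk1* of the 7 stayed lower (log2 fold change -0.07). The log2 fold changes ran from -0.17 for *Pgk1* to 0.36 for *Eno2* (neuronal enolase, at most 3.39 CPM). *Pgk1*, which yields ATP, had 699.96 and 685 CPM in NC against 619 and 612 in si*Airn*. Its groups were apart, with an edgeR adjusted p of 0.0840, but 68.0% of its 50-base windows also occur in other genes, so its counts are uncertain. *Aldoa* (896 and 945 CPM against 836 and 870.2) and *Pkm* (1548 and 1568 against 1399.8 and 1492) were each lower in both si*Airn* libraries, with a log2 fold change of -0.11 (edgeR adjusted p = 0.257 for both). *Pgam1* (phosphoglycerate mutase) and *Eno1* (enolase 1) overlapped between groups, and 41.5% and 72.2% of their windows are shared. *Gapdh*, the glycolytic enzyme most often used as a reference and not a member, ran from 41.0 to 64.8 CPM within NC alone. Of its 50-base windows 27.2% also occur in other genes, so its level and spread are uncertain. *Aldoc*, the brain aldolase, had 3 and 6 counts in NC against 2 and 1 in si*Airn*, which gives a ratio of 0.337 with an exact interval from 0.0587 to 1.35.

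*Tpi1*, triosephosphate isomerase, gave different answers by unit. Its counts were 276 and 305 CPM in NC against 319 and 358 in si*Airn* (log2 fold change 0.22, edgeR adjusted p = 0.111), whereas its FPKM was 149 ± 6.89 in NC against 151 ± 5.18 in si*Airn* (SD, n = 2 each). The transcript length implied by the ratio of both values was 1895 and 1949 bases in NC against 2207 and 2336 in si*Airn*, so the length over which its reads were scaled differed between the groups. Once GC content and length were corrected for, the log2 fold change was 0.40 (edgeR adjusted p = 0.0225), with limma on log2(FPKM + 1) it was 0.01 (adjusted p = 0.888), and without si*Airn* replicate 1 its adjusted p by edgeR was 0.0459. No direction is read from it.

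At the exit of the pathway 1 of 5 genes was called, *Ldhb* (16.8% of all genes were called, and 8.56% lower), while its paralog was level between the groups. *Ldha*, the HIF-induced subunit that favours making lactate, had 608 and 636 CPM in NC against 601 and 628 in si*Airn*. The groups overlapped almost completely, at a log2 fold change of -0.02 (standard error 0.06, 95% interval -0.16 to 0.13, edgeR adjusted p = 0.871). *Ldhb*, the subunit that favours turning lactate back into pyruvate, had 37.2 and 44.9 CPM in NC against 28.2 and 27.4 in si*Airn*. *Ldhb* (gene ID 16832, chromosome 6 from 142490249 to 142507957, minus strand, GRCm38) fell with both si*Airn* libraries well below both NC libraries. The log2 fold change was -0.56 (standard error 0.11, 95% interval -0.82 to -0.31), with an adjusted p of 0.0186 by edgeR.

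The call on *Ldhb* held in 10 of 11 alternatives. Once GC content and length were corrected for, its log2 fold change was -0.38 (edgeR adjusted p = 0.0512), and without NC replicate 1 or NC replicate 2 it was -0.70 (adjusted p = 0.0653 by edgeR) and -0.42 (0.123). Of its 50-base windows 27.0% occur in other genes. The share of *Ldhb* in the FPKM of lactate dehydrogenase went from 7.30% and 8.30% in NC to 5.70% and 5.32% in si*Airn*. *Ldha* therefore made up 92.2% ± 0.703 in NC against 94.5% ± 0.276 in si*Airn* (SD, n = 2 each). The difference between the changes of both genes was not tested.

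**Figure D3:**
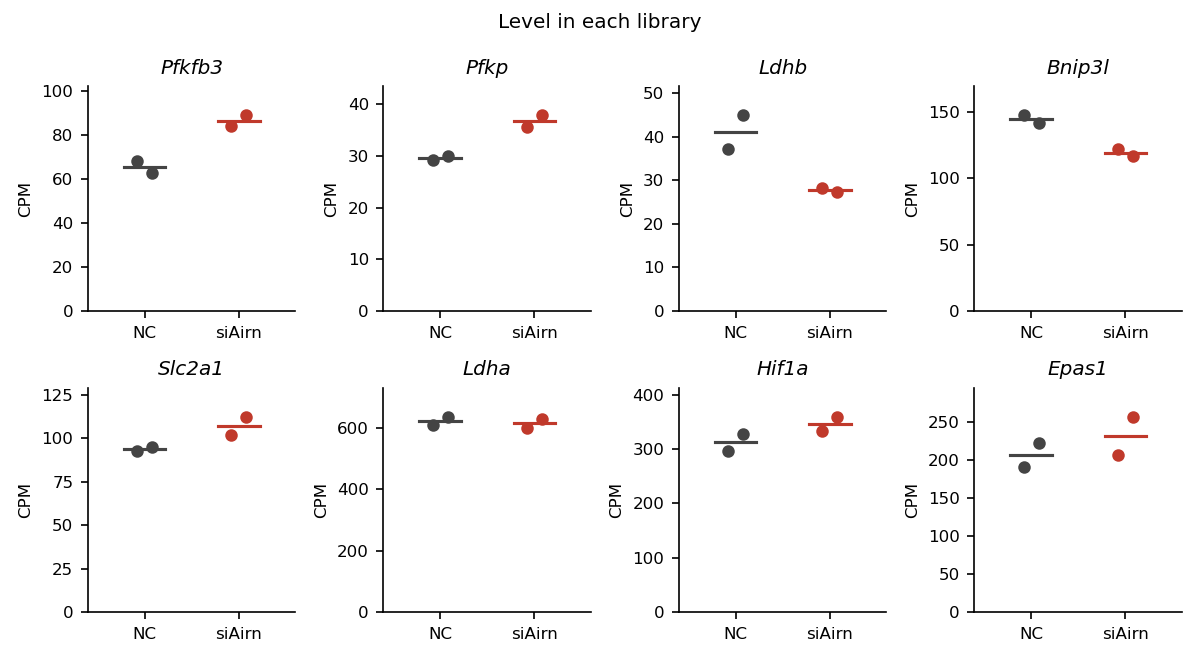
Level in each library, in CPM on axes that start at 0, of the 4 members called (top row) and of *Slc2a1*, *Ldha*, *Hif1a* and *Epas1* (bottom row), with a point per library and a line at the group mean. The groups are apart in the top row, where *Ldhb* has 37.2 and 44.9 CPM in NC against 28.2 and 27.4 in si*Airn*, and overlap for *Ldha* and *Epas1*.

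The promoters of both lactate dehydrogenase genes are set side by side because 1 gene was called and the other was not. *Ldha* has 2 windows on the plus strand, chr7:46845554-46845853 with 7 matches and chr7:46846832-46847131 with 2, and the one with more matches is shown. *Ldhb* has 1 window, chr6:142507908-142508207 on the minus strand, with 1 match (RefSeq starts, GRCm38.p6, capitals as above).
Ldha: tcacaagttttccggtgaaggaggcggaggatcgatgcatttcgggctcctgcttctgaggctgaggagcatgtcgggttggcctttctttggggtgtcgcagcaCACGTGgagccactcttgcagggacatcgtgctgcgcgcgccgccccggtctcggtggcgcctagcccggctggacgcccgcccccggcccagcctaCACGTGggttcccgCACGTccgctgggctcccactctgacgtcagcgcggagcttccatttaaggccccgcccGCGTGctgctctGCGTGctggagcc
Ldhb: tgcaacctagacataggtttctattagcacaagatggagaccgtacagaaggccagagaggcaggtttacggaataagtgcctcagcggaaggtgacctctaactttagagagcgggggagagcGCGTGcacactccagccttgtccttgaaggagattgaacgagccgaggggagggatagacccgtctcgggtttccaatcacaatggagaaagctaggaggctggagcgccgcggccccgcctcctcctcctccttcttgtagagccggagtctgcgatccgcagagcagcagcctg
No factor was measured at these sequences.

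Lactate leaves through the monocarboxylate transporters. *Slc16a1* (MCT1) had 33.6 and 39.0 CPM in NC against 38.6 and 42.1 in si*Airn*, and *Slc16a3* (MCT4), the hypoxia-induced exporter, 28.1 and 25.9 against 24.5 and 25.5, with edgeR adjusted p-values of 0.322 and 0.431. *Pdk1*, the pyruvate dehydrogenase kinase that HIF-1 induces to keep pyruvate from the mitochondria, had 11.5 and 12.1 CPM in NC against 11.1 and 8.48 in si*Airn*. The lower mean came mostly from si*Airn* replicate 2, and the log2 fold change of -0.27 (standard error 0.16) had an edgeR adjusted p of 0.276.

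*Pdk1* was also the smallest of the 4 kinases, with 6.02% of their FPKM in NC against 5.04% in si*Airn*. *Pdk4*, the isozyme tied to fasting and fatty acid use and not a member, was called higher (log2 fold change 0.31, edgeR adjusted p = 0.0357) and held 51.7% ± 2.29 of the kinase FPKM in NC against 62.2% ± 2.70 in si*Airn*. *Pdk2* was called lower (log2 fold change -0.60, edgeR adjusted p = 0.0209), and its share was 16.1% ± 1.73 in NC against 10.3% ± 0.470 in si*Airn* (SD, n = 2 each). Neither call held once GC content and length were corrected for (*Pdk4* 0.25, edgeR adjusted p = 0.0797, and *Pdk2* -0.44, 0.0752). The makeup of the kinases moved more than that of any other step plotted by isozyme.

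**Figure D4:**
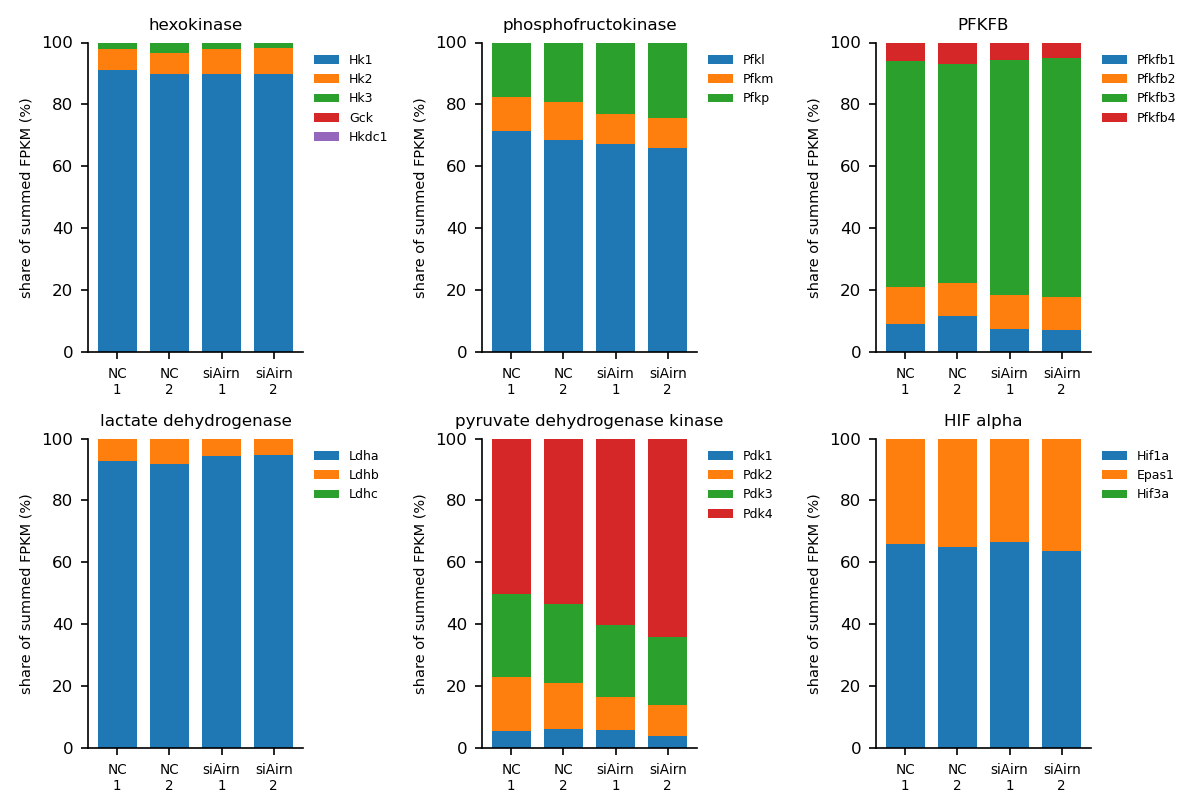
Share of each isozyme in the summed FPKM of its step (vertical axis, percent) in the 4 libraries, for hexokinase, phosphofructokinase, the PFKFB enzymes, lactate dehydrogenase, pyruvate dehydrogenase kinase and the HIF alpha subunits. *Pfkp* has the wider green band in si*Airn* (23.0% and 24.4%) than in NC (17.7% and 19.1%), and the division between *Hif1a* and *Epas1* is nearly the same in all libraries.

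The HIF subunits and the genes that control their turnover gave no call in 5 tested in the main analysis, where 16.8% of all genes were called. With a block for the replicate number, *Hif1a* and *Epas1* were called (edgeR adjusted p = 0.0313 and 0.0218), where 35.5% of all genes were. With GC content and length also corrected for, *Epas1* was (0.0454) and *Hif1a* was not. *Hif1a* (gene ID 15251), which encodes HIF-1α, had 297 and 328 CPM in NC against 332 and 359 in si*Airn*. The lowest si*Airn* value was just above the highest NC value, and the log2 fold change of 0.15 (standard error 0.08, 95% interval -0.03 to 0.33) had an edgeR adjusted p of 0.217. It was -0.01 once GC content and length were corrected for. *Epas1* (gene ID 13819), which encodes HIF-2α, had 191 and 221 CPM in NC against 207 and 256 in si*Airn*, which overlap (log2 fold change 0.17, standard error 0.12, edgeR adjusted p = 0.350). The share of *Hif1a* in the FPKM of the 3 alpha subunits was 65.5% ± 0.722 in NC against 65.3% ± 2.12 in si*Airn*.

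*Vhl* (gene ID 22346), the ubiquitin ligase subunit that marks hydroxylated HIF for degradation, had 33.2 and 34.8 CPM in NC against 32.9 and 35.7 in si*Airn*, which gives a log2 fold change of 0.01 (95% interval -0.19 to 0.21, edgeR adjusted p = 0.941). The prolyl hydroxylase *Egln1* had between 85.6 and 90.9 CPM in all libraries, which overlapped between groups. *Egln3*, the hydroxylase that HIF itself induces, had 8.46 and 7.57 CPM in NC against 6.31 and 6.11 in si*Airn*, which gives a log2 fold change of -0.37 (edgeR adjusted p = 0.141). As RNA these values say nothing of HIF protein, which is set by its degradation.

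Among 9 hypoxia-induced genes tested, 1 was called, *Bnip3l* (11.1%, against 16.8% of all genes). In the main analysis 8 of the 9 were lower, against 6794 of all 13628 genes, with a median log2 fold change of -0.11. Once GC content and length were corrected for, the middle value of the 9 was -0.05 (*Bnip3*), and *P4ha2* (0.015) was higher as well as *Kdm3a* (0.18). *Bnip3l* (gene ID 12177, chromosome 14 from 66985239 to 67008877, minus strand, GRCm38) encodes NIX, a mitophagy receptor. It had 148 and 142 CPM in NC against 122 and 117 in si*Airn*, with the groups fully apart. The log2 fold change was -0.27 (standard error 0.06, 95% interval -0.42 to -0.12), and the adjusted p by edgeR was 0.0297. The call held in 9 of 11 alternatives, with the exception of limma on both pseudocounts (adjusted p = 0.0623 and 0.0632), and the value was -0.35 once GC content and length were corrected for. The call was lost without NC replicate 1, NC replicate 2 or si*Airn* replicate 2, at log2 fold changes of -0.25, -0.31 and -0.25. Of its 50-base windows 23.4% occur in other genes.

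*Bnip3* (gene ID 12176), the other mitophagy receptor of the family and a standard HIF-1 target, had 32.2 and 33.2 CPM in NC against 31.4 and 31.9 in si*Airn*, which gives a log2 fold change of -0.05 (standard error 0.08, 95% interval -0.23 to 0.14, edgeR adjusted p = 0.716). *Car9*, carbonic anhydrase 9 and a hypoxia marker of high specificity, had 9 and 15 counts in NC against 10 and 5 in si*Airn*, which gives a ratio of 0.632 with an exact 95% interval from 0.308 to 1.25, so it was close to undetected in both groups. *Kdm3a*, a histone demethylase, was the 1 gene of these 9 that was higher in the main analysis. It had 85.3 and 75.7 CPM in NC against 106 and 92.0 in si*Airn* (log2 fold change 0.30, edgeR adjusted p = 0.0709). It was called without si*Airn* replicate 2 (adjusted p by edgeR of 0.0267) and not without si*Airn* replicate 1 (0.230), and with GC content and length corrected for its log2 fold change was 0.18 (edgeR adjusted p = 0.259).

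None of the other members of this group was called. The stress gene *Ndrg1* had 116 and 119 CPM in NC against 105 and 103 in si*Airn* (log2 fold change -0.17, edgeR adjusted p = 0.0959), and *Ddit4*, an inhibitor of mTORC1, had 33.4 and 37.5 against 29.0 and 31.4 (-0.23, adjusted p = 0.135). With GC content and length corrected for, *Ddit4* was at -0.02 (edgeR adjusted p = 0.877). *P4ha1* and *P4ha2*, the collagen prolyl hydroxylases, had log2 fold changes of -0.02 and -0.06 with groups that overlapped in CPM. In FPKM *P4ha1* had 67.2 and 62.3 in NC against 69.6 and 72.1 in si*Airn*, which do not overlap. Its length implied by the ratio of both values was 3160 and 3181 bases in NC against 2953 and 2916 in si*Airn*. The groups also overlapped in CPM for *Higd1a*, a mitochondrial protein, and for *Ankrd37*, at no more than 1.98 CPM in any library. Exons on the opposite strand cover 22.5% of the exonic bases of *Higd1a* and 26.4% of those of *Ankrd37*. The direction of 9 members, *Hif1a*, *Pfkl*, *P4ha2*, *Pkm*, *Eno1*, *Egln1*, *Aldoa*, *Ldha* and *Pgam1*, reversed once GC content and length were corrected for, and none of these 9 was called.

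The correction removes a dependence of the change on GC content and transcript length. The members have a median GC content of 52.0% against 49.7% in all genes tested, and a median transcript length of 3227 against 3431 bases. Each library's trend over GC content and length was removed before the test. Among the 12948 genes with both values, 2367 had an adjusted p under 0.05 before the correction and 1015 after it. Of the members, 3 were then called (8.33%, against 7.84% of all genes), *Pfkfb3* (log2 fold change 0.36, edgeR adjusted p = 0.0297), *Bnip3l* and *Tpi1*. *Slc2a1* had a log2 fold change of 0.28 (edgeR adjusted p = 0.0551). Each group holds only libraries of 1 condition, so a trend from library preparation and one from the cells cannot be told apart.

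**Figure D5:**
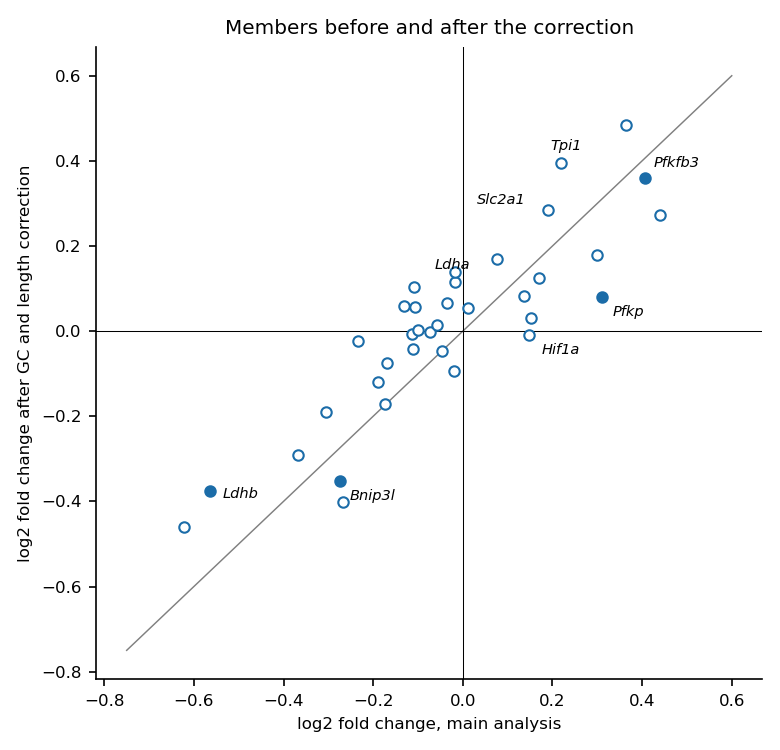
Log2 fold change of the 36 members in the main analysis (horizontal) and after the correction for GC content and transcript length (vertical), with filled points for the 4 members called in the main analysis and a grey line of equality. *Pfkfb3* lies near the line at 0.41 and 0.36, whereas *Pfkp* drops from 0.31 to 0.08.

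Genes of the same pathways that are not members were counted in the same fit. Of 13 other glycolysis genes tested, 2 were called (15.4%, against 16.8% of all genes). These were *Pdk2* and the transporter *Slc2a8* (log2 fold change -0.52, edgeR adjusted p = 0.0323), both lower. Once GC content and length were corrected for, edgeR called 0 of the 13, against 7.84% of all genes (3 had an unadjusted p under 0.05), with *Slc2a8* at -0.37 (adjusted p = 0.101). Of 13 partners of HIF and parts of its oxygen-sensing complex, 2 were called (15.4%, against the same 16.8%). The coactivator *Ep300* was higher (0.51, edgeR adjusted p = 0.00932) and *Elob*, a subunit of the VHL ligase, lower (-0.30, edgeR adjusted p = 0.0449). Of these the correction left *Ep300* called (0.32, edgeR adjusted p = 0.0341) and not *Elob* (-0.06, 0.565). A wider list of 37 other hypoxia-induced genes had 11 called (29.7%, against 16.8% of all genes), 7 higher and 4 lower. With the correction 12 of the 37 were called, where 7.84% of all genes were. Without the correction the median log2 fold change of the wider list was 0.04, against -0.11 for the 9 members of that kind. With the correction, the middle value of those 9 members was -0.05 (*Bnip3*). The 3 of the wider list with the smallest p were *Fam162a*, which fell from 34.5 and 32.2 CPM to 16.9 and 17.2 (log2 fold change -0.96, edgeR adjusted p = 0.00496), *Tfrc*, the transferrin receptor, which rose (0.56), and *Plod2*, a collagen lysyl hydroxylase, which rose (0.59). *Vegfa*, the angiogenic HIF target, had 62.4 and 60.9 CPM in NC against 74.9 and 74.5 in si*Airn* (log2 fold change 0.28, edgeR adjusted p = 0.0291). Genes that HIF is known to induce were thus called in both directions, and the difference between the lists was not tested.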

How the data were processed

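RNA-seq of 4 libraries of primary LSECs was grouped by the labels into NC and si*Airn*. The authors deposited estimated counts, not normalized, and a second value per gene read as FPKM, since it scales with count, length and library total. The submitters' processing notes name BWA, Bowtie2, RSEM and hg19, a human build, although the samples are mouse, so coordinates are those of GENCODE M21 and RefSeq (GRCm38) and not of the files. The authors' group means were not used.

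Rounded counts went into edgeR 4.0.16 under R 4.3.3 (TMM, filterByExpr, quasi-likelihood test, no covariate, two-sided), with Benjamini-Hochberg adjustment over 13628 genes. CPM carry TMM factors (0.985 to 1.02). Calls mean an adjusted p under 0.05. The 11 alternatives were DESeq2 1.42.0, upper-quartile normalization, no filter, at least 10 counts in every library, the likelihood-ratio test, limma 3.58.1 on log2(FPKM + 1) and log2(FPKM + 0.1) where the mean FPKM reached 1, a block for the replicate number, corrections for length and for GC content with length (natural splines with 5 degrees of freedom per library), and the block with the latter. Each library was also left out in turn, and the lone library was then assumed to vary like the other group. The main test on only the genes with GC content and length was added after seeing the data. Full values were set for called members and for *Hif1a*, *Epas1*, *Vhl*, *Slc2a1*, *Hk2*, *Pfkfb3*, *Ldha*, *Pdk1*, *Car9* and *Bnip3*, with the 3 genes of smallest p in each related list, *Gapdh* and *Vegfa*, and other members named were picked after their values were seen. Intervals of untested genes are exact binomial. The members and lists were chosen with earlier results of these data known. The quasi-likelihood test, the likelihood-ratio test, DESeq2 and the GC and length correction were tried first on simulated data. The other alternatives and the fits on 3 libraries were not.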

Additional observations from a re-analysis of the deposited data

How the results depend on the processing

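With 4 libraries, *Pfkfb3* stayed called in all 11 alternatives. Of all genes, 1342 were called after the length correction, 1015 after the GC and length correction, 4841 with a replicate block and 4100 with the block and that correction. Members called numbered 14 with the block (38.9%, against 35.5% of all genes) and 10 with the block and that correction (27.8% against 31.7%), against 4. With the block *Epas1* (log2 fold change 0.17, edgeR adjusted p = 0.0218) and *Hif1a* (0.15, 0.0313) were among them, and with the correction added *Epas1* was (0.12, 0.0454) and *Hif1a* was not (0.907). Same-numbered libraries had correlated deviations (0.233 over 2 pairs), but no source says what a number shares, so the block is no stronger test. No member passed the study's threshold after the length correction, the GC and length correction or the block with it (0 in each). Leaving out 1 library gave 0 to 2410 genes and 0 to 5 members called. Calls were lost without either NC library and also without si*Airn* replicate 2. The library left alone in a group has no spread of its own in these fits, so no cause is read from the lost calls. DESeq2 gave no adjusted p for 2251 genes.

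None of the members that reversed was called in the main analysis. After the GC and length correction the log2 fold changes were -0.0094 (*Hif1a*), 0.0034 (*Pfkl*), 0.015 (*P4ha2*), 0.056 (*Pkm*), 0.059 (*Eno1*), 0.067 (*Egln1*), 0.10 (*Aldoa*), 0.12 (*Ldha*) and 0.14 (*Pgam1*). With the block added they were -0.0088, 0.0044, 0.012, 0.056, 0.061, 0.067, 0.10, 0.12 and 0.14 in the same order, and *Pgam1* was then called (edgeR adjusted p = 0.0212). After the length correction alone they were -0.014 (*Hk2*), 0.00079 (*P4ha2*), 0.024 (*Aldoa*), 0.063 (*Bnip3*), 0.083 (*Pgam1*) and 0.11 (*Ldha*). With limma on FPKM they were 0.0020 (*Egln1*), 0.025 (*Ldha*) and 0.13 (*P4ha1*) at either pseudocount, and 0.022 and 0.023 for *Pgam1*. Without 1 library, values ran from -0.29 to 0.041 for *Eno1*, -0.052 to 0.014 for *Ldha*, -0.050 to 0.011 for *Pgam1*, -0.066 to 0.025 for *P4ha1*, -0.24 to 0.10 for *P4ha2*, -0.010 to 0.17 for *Pfkfb4* and -0.048 to 0.067 for *Vhl*. The cause was not tested.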

Other observations

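Genes of 2 pathways that connect to glycolysis were counted in the same fit. Of 8 pentose phosphate genes, 3 were called (37.5%, against 16.8% of all genes), 2 of them higher. *Taldo1*, transaldolase of the non-oxidative branch, rose from 307 and 297 CPM to 444 and 457 (log2 fold change 0.58, edgeR adjusted p = 0.00513), *Pgd*, 6-phosphogluconate dehydrogenase, rose from 213 and 213 to 257 and 285 (0.35, edgeR adjusted p = 0.0222), and *Pgls*, the lactonase of the oxidative branch that acts just before *Pgd*, was called lower (-0.34, edgeR adjusted p = 0.0216). Once GC content and length were corrected for, *Taldo1* and *Pgd* stayed called and *Pgls* did not (-0.19, edgeR adjusted p = 0.113), where 7.84% of all genes were called. The sum over the 8 genes was 1009 and 1014 CPM in NC and 1161 and 1238 in si*Airn*.

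Of 24 genes of pyruvate dehydrogenase and the TCA cycle, 19 were lower, against 6794 of all 13628 genes, with a median log2 fold change of -0.11. Of the 24, 3 were called (12.5%, against 16.8% of all genes). After the length correction 14 were lower and 1 was called, where 10.5% of all genes were called. After the GC and length correction 20 were lower and 1 was called, where 7.84% of all genes were. *Pdha1*, the subunit of pyruvate dehydrogenase that the PDK enzymes phosphorylate, rose (0.32, edgeR adjusted p = 0.0233), whereas *Idh3g*, a subunit of isocitrate dehydrogenase, was called lower (-0.32, edgeR adjusted p = 0.0187). With the GC and length correction *Pdha1* stayed called (0.29, edgeR adjusted p = 0.0393) and *Idh3g* did not (-0.23, 0.0675).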
